A study of Raphidocelis subcapitata with 493 samples.

Results

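The genes described here are those whose transcript level in Raphidocelis subcapitata, a unicellular freshwater green alga used in toxicity testing, followed the chain length of 3 fluorotelomer sulfonates at 100 µM. For each compound, R was the log2 ratio of the mean CPM (counts scaled to the library total) plus 1 to the same value in the DMSO controls of its own exposure, centred on the median gene with a control level of at least 5 CPM. Of 13429 genes in the files, 7871 reached 10 CPM in the controls of both exposures, 6408 of these had an absolute R under 0.4 with 4:2FTS, and in 1822 the R of 6:2FTS lay between those of 4:2FTS and 8:2FTS. The 50 with the highest difference R(8:2FTS) minus R(4:2FTS) are called the rising list and the 50 with the lowest the falling list, 100 members in all. The members were thus selected on the 100 µM libraries of the 3 compounds and on the DMSO controls of both exposures, and these values are given as a description that supports no statement on the lists. The files carry identifiers without gene names, so no function or position can be given. 2 identifiers per list are named, and other members are referred to by their rank in the list, with rank 1 at the largest difference.

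Fluorotelomer sulfonates are surfactant-like PFAS with a fully fluorinated tail, a short hydrocarbon link and a sulfonate head group. In each name the number before the colon gives the fluorinated carbons, so the tail holds 4 in 4:2FTS, 6 in 6:2FTS and 8 in 8:2FTS, and the number after it gives the 2 hydrogen-bearing carbons of the link, which all 3 share. Longer fluorinated tails make such compounds less water soluble and favour their partition into membranes and binding to proteins. Concentrations here are nominal, and dissolved or cellular concentrations were not part of the files.

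The study exposed the alga for 24 h to 22 PFAS in wells holding 0.33% solvent and measured RNA from pooled homogenates with a 3' tag kit. Solvent could be DMSO or methanol by compound, and the control libraries are labelled DMSO. 4:2FTS and 6:2FTS were tested in 1 exposure with shared DMSO controls, and 8:2FTS in another together with PFTDoDA. Each of these 4 compounds was given at 0.1, 0.3, 1, 3, 10, 32 and 100 µM, with 3 libraries per concentration, numbered P1, P2 and P3, and 3 control libraries per exposure. Library totals ran from 839558 to 1738803 counts in the first exposure and from 941036 to 1676351 in the second, against 259836 to 2470296 over all 493 libraries. Compound and exposure cannot be told apart when 8:2FTS is set against 4:2FTS or 6:2FTS, and a culture with fewer cells expressing a gene cannot be told apart from one with less RNA per cell.

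At 100 µM the median R of the rising list was -0.27 with 4:2FTS, 0.11 with 6:2FTS and 0.67 with 8:2FTS. In the falling list the medians were 0.21, -0.09 and -0.69. The last member of the rising list had a difference R(8:2FTS) minus R(4:2FTS) of 0.777 and the first gene outside it 0.771, while the falling list ended at -0.776 with the next gene at -0.77. The lists therefore end within a continuum of genes. Most members were not called even in the comparisons that chose them. Against their controls, 7 rising members were called up with 8:2FTS at 100 µM (edgeR, adjusted p under 0.05), where 1.05% of all tested genes were, and 11 falling members were called down against 1.67%. With 6:2FTS 2 rising members were called up (0.906% of all genes) and 0 falling members down (1.04%), and with 4:2FTS 0 and 0 (0.358% and 0.434%). These counts come from the libraries that selected the members, so nothing is read from them against the percentages. Choosing the lists again without 1 of the 3 replicate numbers kept 29 of the 100 members without replicate 1, 29 without replicate 2 and 33 without replicate 3.

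The members were low in expression beside the genes that passed the control and 4:2FTS limits. Median control levels of the rising list were 28.6 CPM in the exposure of 4:2FTS and 6:2FTS and 19.9 CPM in that of 8:2FTS, and those of the falling list were 23.5 and 31.7 CPM. Those 6408 genes had medians of 54.0 and 52.7 CPM. Over the controls of the 9 other exposures, which the rule did not use, the log2 level of a rising member varied with a median SD of 0.46 and that of a falling member with 0.51, against 0.39 for all those genes.

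The DMSO controls of the 8:2FTS exposure moved with the lists. They are the denominator of R(8:2FTS), on which the members were selected, so the selection itself favours this direction. They were lower than the other controls for 46 of 50 rising members, by a median of -0.39 on the log2 scale, and higher for 39 of 50 falling members, by a median of 0.21, where the median over the 6408 genes was 0.008. The shift against these controls was present at the lowest concentration. At 0.1 µM 8:2FTS, 46 of 50 rising members had R above 0 with a median of 0.29, and 46 of 50 falling members had R below 0 with a median of -0.28. Of the 6408 genes, 3176 lay above 0 there and 3232 below it. PFTDoDA, which shared those controls, gave 0.31 and -0.31 at 0.1 µM, with 44 rising members above 0 and 45 falling members below it. Of the 6408 genes, 3227 lay above 0 with PFTDoDA and 3181 below it. These values of R at 0.1 µM share the denominator used in the selection. From 0.1 to 32 µM the rising median with 8:2FTS then went from 0.29 to 0.45 and the falling median from -0.28 to -0.43, before 0.67 and -0.69 at 100 µM. How far the controls account for the offset was not tested. All values of R rest on them, so the tests that follow use neither the controls of these 2 exposures nor the 100 µM libraries of the fluorotelomer sulfonates. CPM of those libraries are given below as a description only, since they were used to select the members.

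**Figure D1:**
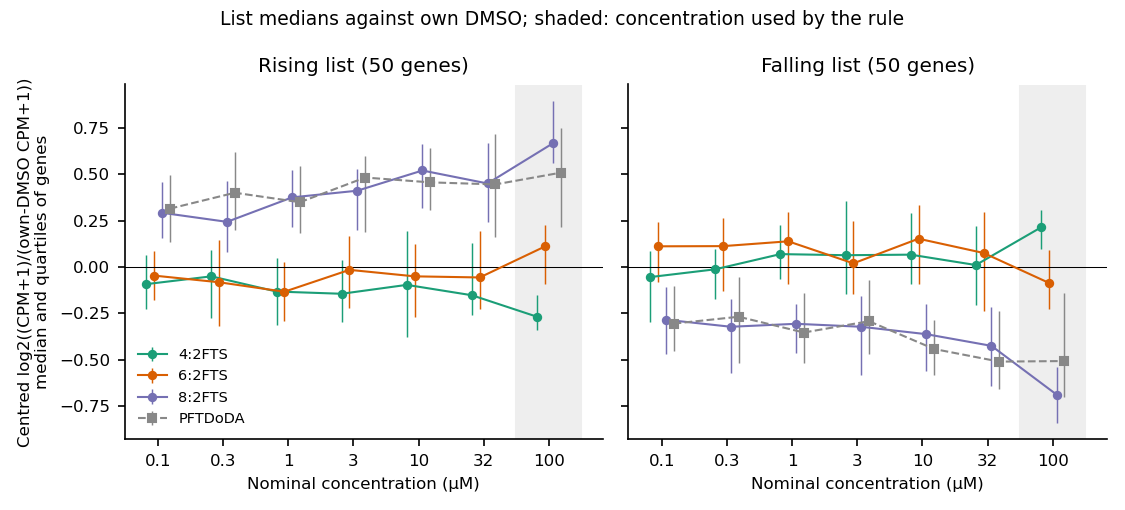
Median R (log2 ratio to the own DMSO controls, vertical axis, with the quartiles over members as bars) of the 50 rising and 50 falling members against nominal concentration in µM (log axis) for 4:2FTS, 6:2FTS, 8:2FTS and PFTDoDA; shading marks 100 µM, where the fluorotelomer sulfonate values chose the members. With 8:2FTS the rising median was already 0.29 at 0.1 µM and reached 0.67 at 100 µM, and PFTDoDA started from 0.31. The controls behind these values were also used in the selection.

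Over the 18 8:2FTS libraries from 0.1 to 32 µM, a straight line was fitted against the 6 concentrations in their order, spaced evenly, and this trend is given as the log2 change over the 5 steps. With 8:2FTS, 5 of 50 rising members were called up (edgeR, adjusted p under 0.05), against 0.711% of all 9140 tested genes. Of the 49 falling members tested, 1 was called down, against 0.558%. The median trend was 0.19 in the rising list, with 35 of 50 members above 0, and -0.09 in the falling list, with 34 of 49 below 0, beside -0.001 over all genes. With 6:2FTS, 0 rising members were called up (0.431% of all genes) and 1 falling member down (1.29%), and the medians were 0.10 and 0.01. With 4:2FTS, 0 rising members were called up (1.04%) and 2 falling members down (3.49%), with medians of -0.03 and 0.14. A higher share of the rising list than of all genes was thus called with 8:2FTS, while the counts with the shorter chains stayed at 2 or fewer. Most of the 8:2FTS calls depended on replicate 2, without which only 1 member in all was called. Over all genes that fit called 19 up and 6 down, beside 65 and 51 with all replicates. With the replicate number fitted as a further term (a block), 6 rising members were called up and 5 falling members down. That fit called 109 of all genes up and 112 down, so the 2 lists differed less in it.

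Rsub_07655, first in the rising list, carried the steepest called trend of that list. In the 8:2FTS exposure its 3 control libraries held 38.3, 31.3 and 32.8 CPM. With 8:2FTS it was at 36.6, 36.1 and 43.5 CPM at 0.1 µM, at 57.6, 66.1 and 73.0 CPM at 3 µM, at 86.5, 76.3 and 74.2 CPM at 10 µM and at 115.7, 113.0 and 91.9 CPM at 32 µM. The libraries at 3 µM and above do not overlap with those at 0.1 µM, and each of these steps lies above the one before. At 100 µM it stood at 99.9, 103.7 and 91.1 CPM, close to the libraries at 32 µM. The trend was 1.52 ± 0.16 (SE; edgeR, adjusted p = 4.73e-11), and it was called under each of the 8 alternatives tried, with sizes from 1.39 to 1.68. The change from 0.1 to 32 µM alone was 1.47 ± 0.19 (adjusted p = 1.58e-07).

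With the shorter chains Rsub_07655 moved less below 100 µM. The controls they share held 44.2, 25.1 and 37.2 CPM. With 6:2FTS the gene was at 48.9, 27.5 and 36.7 CPM at 0.1 µM, at 44.8, 53.0 and 55.5 CPM at 32 µM and at 81.4, 61.9 and 56.1 CPM at 100 µM. With 4:2FTS it was at 35.3, 22.6 and 41.1 CPM at 0.1 µM, at 51.8, 15.3 and 39.2 CPM at 32 µM and at 41.7, 34.0 and 33.4 CPM at 100 µM. The 4:2FTS libraries overlap with the controls throughout, and those of 6:2FTS lie above the controls only at 32 and 100 µM. These controls and the 100 µM libraries were used in the selection, so nothing is read from this order. Neither trend up to 32 µM passed the threshold (edgeR), at 0.28 for 6:2FTS (95% interval -0.14 to 0.70, adjusted p = 0.611) and -0.02 for 4:2FTS (-0.54 to 0.49, adjusted p = 0.98).

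**Figure D2:**
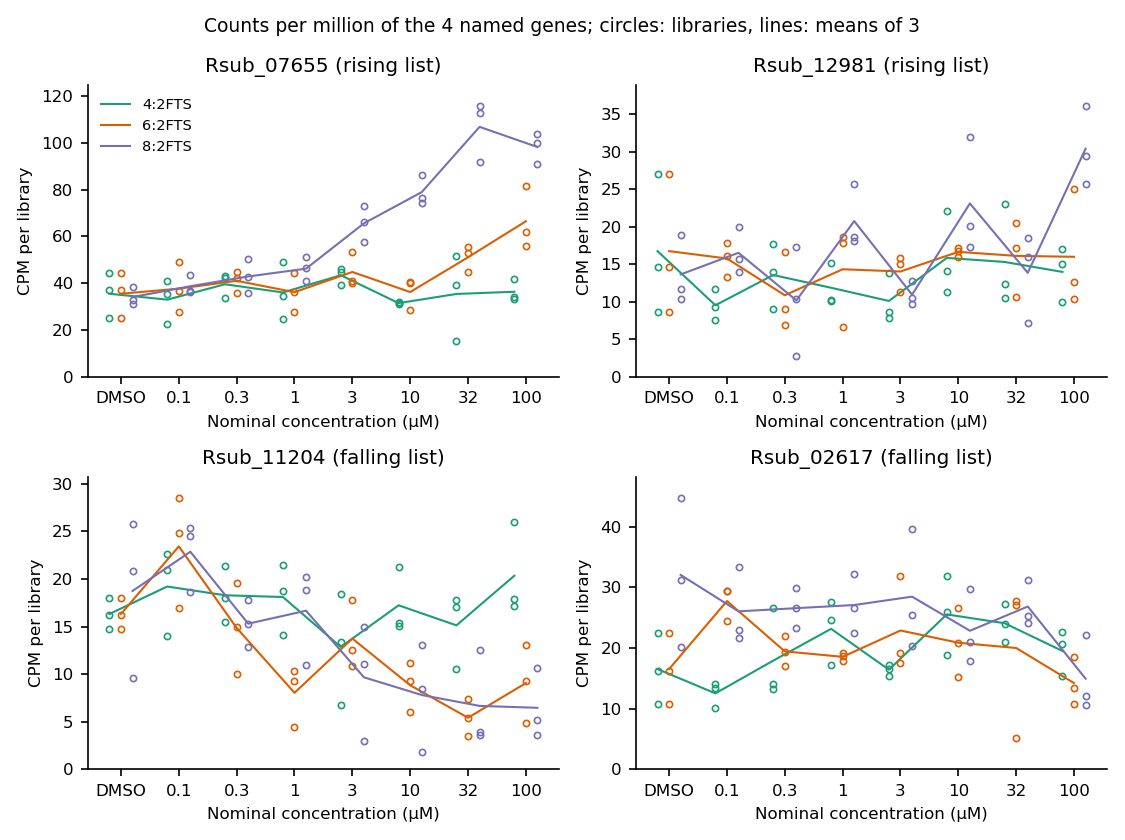
CPM (vertical axis) of the 4 named genes in each library of 4:2FTS, 6:2FTS and 8:2FTS against nominal concentration in µM (log axis), with the DMSO controls of the own exposure at the left; the controls of 4:2FTS and 6:2FTS are the same 3 libraries. Rsub_07655 rises stepwise with 8:2FTS to 91.9 to 115.7 CPM at 32 µM, while the 4:2FTS libraries stay among the controls.

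The difference between chain lengths was tested directly as a difference of trends for the 3 pairs of compounds at matched concentrations, with p-values adjusted over the genes of each fit and not over the 3 pairs. Between 8:2FTS and 4:2FTS, 1 rising member differed upwards (1.7% of all genes) and 2 falling members downwards (0.532%). Between 8:2FTS and 6:2FTS, 2 rising members differed upwards (0.416%) and 1 falling member downwards (0.479%). Between 6:2FTS and 4:2FTS, which shared an exposure, 0 members were called in either direction, where 0.0% of all genes were. At an unadjusted p under 0.05 edgeR gave 1 rising and 4 falling members there in the direction of their list. Of all 9324 genes, 510 passed that limit in either direction. At the adjusted threshold DESeq2 also called 0 members. A direct comparison of 6:2FTS with 4:2FTS at 32 µM called 0 members (0.0536% of all genes up and 0.0429% down) at the adjusted threshold with edgeR and 0 with DESeq2. At an unadjusted p under 0.05 edgeR gave 0 rising and 1 falling member in the direction of the list, and 744 of 9324 genes in either direction.

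For Rsub_07655 the trend with 8:2FTS exceeded that with 4:2FTS by 1.55 ± 0.29 (SE; edgeR, adjusted p = 0.00102), and this held under each of the 8 alternatives, with adjusted p of at most 0.0429. It exceeded that with 6:2FTS by 1.23 ± 0.25 (adjusted p = 0.0070), a call lost without replicate 1 and without replicate 2 (adjusted p from 0.000829 to 0.327 over the alternatives). 6:2FTS and 4:2FTS were not shown to differ, at 0.31 (95% interval -0.36 to 0.97, adjusted p = 0.951), an interval that leaves room for a change of almost 1 on the log2 scale.

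The values at 100 µM selected the members, so the differences of trends over the whole lists are not set against them. The median difference of trends between 8:2FTS and 4:2FTS was 0.20 in the rising list and -0.30 in the falling list, with 34 and 33 of 50 members in the direction of the list. Between 6:2FTS and 4:2FTS the medians were 0.12 and -0.12, and between 8:2FTS and 6:2FTS 0.14 and -0.11. The 3 trends stood in the order of the chain length in 16 of 50 rising members and in the opposite order in 2. Of the falling members, 18 of 49 followed the order of the rule and 3 the opposite order. Among all 8831 genes tested with the 3 compounds, the rising order was found in 20.4% and the falling order in 20%.

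**Figure D3:**
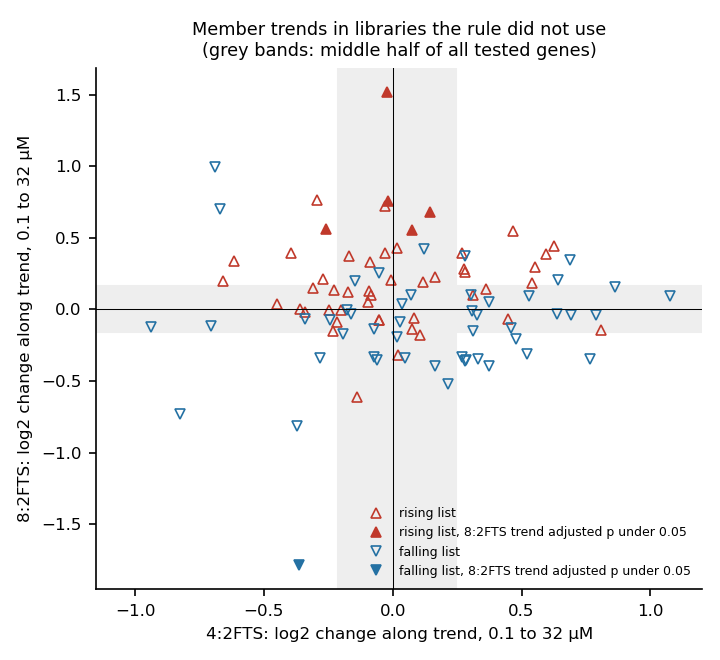
Log2 change along the trend from 0.1 to 32 µM with 8:2FTS (vertical axis) against that with 4:2FTS (horizontal axis) for the 99 members tested with both; filled points had an adjusted p under 0.05 with 8:2FTS, and the grey area spans the middle 50% of all tested genes on each axis. Rsub_07655 lies at 1.52 with 8:2FTS and -0.02 with 4:2FTS, apart from the other rising members.

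4 further rising members had a called trend with 8:2FTS (edgeR), and all 4 changed by less than Rsub_07655. The member at rank 16 went from 106, 76.0 and 84.0 CPM at 0.1 µM to 156, 127 and 141 CPM at 32 µM and 178, 147 and 175 CPM at 100 µM. Its libraries at 32 µM lie above those at 0.1 µM, and its trend was 0.68 (adjusted p = 0.0020, lost without replicate 2, 0.000279 to 0.0942 over the alternatives). With 6:2FTS this member stood at 112, 126 and 121 CPM at 100 µM, above its controls at 90.2, 71.3 and 66.6 CPM. Both groups of libraries were used in its selection, so nothing is read from their order.

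The member at rank 41 went from 131, 104 and 126 CPM at 0.1 µM to 153, 192 and 191 CPM at 32 µM, again without overlap. Its trend was 0.56 (edgeR, adjusted p = 0.0025, lost without replicate 2, 0.000492 to 0.324). The member at rank 20 went from 84.3, 74.5 and 100 CPM to 118, 110 and 145 CPM, with a trend of 0.56 (adjusted p = 0.0164). That call was lost when any replicate number was left out (0.00449 to 0.223). The libraries of both concentrations were again separate in this member.

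The member at rank 21 differed between the exposures before any compound acted. Its controls held 138, 95.6 and 120 CPM with 4:2FTS and 6:2FTS and 45.7, 16.1 and 66.5 CPM with 8:2FTS. With 8:2FTS it went from 58.2, 30.0 and 42.0 CPM at 0.1 µM to 68.1, 61.4 and 60.7 CPM at 32 µM, a trend of 0.76 (edgeR, adjusted p = 0.0164, lost without replicates 2 or 3, 0.00456 to 0.269). The level at 32 µM with 8:2FTS thus stayed under each control library of the other exposure. The difference of its trends between 8:2FTS and 6:2FTS was 0.95 (adjusted p = 0.0388, lost without replicates 2 or 3, 0.00815 to 0.42).

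In the falling list, Rsub_11204 at rank 1 fell with both longer chains. With 8:2FTS it was at 25.4, 24.6 and 18.7 CPM at 0.1 µM, at 2.99, 11.02 and 14.96 CPM at 3 µM and at 3.89, 3.56 and 12.5 CPM at 32 µM. With 6:2FTS it was at 24.9, 28.5 and 16.9 CPM at 0.1 µM and at 3.45, 5.41 and 7.34 CPM at 32 µM. With 4:2FTS it was at 22.7, 20.9 and 14.0 CPM at 0.1 µM and at 17.8, 10.5 and 17.1 CPM at 32 µM. The 32 µM libraries lie under those at 0.1 µM with 8:2FTS and 6:2FTS and overlap with them with 4:2FTS.

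The trend of Rsub_11204 was -1.79 ± 0.37 with 8:2FTS (SE; edgeR, adjusted p = 0.00251, 0.000159 to 0.246 over the alternatives) and -1.72 ± 0.38 with 6:2FTS (adjusted p = 0.0091, 0.00315 to 0.212), and both calls were lost without replicate 1 and without replicate 2. With 4:2FTS it was -0.36 (95% interval -0.97 to 0.24, adjusted p = 0.552). The differences of trends did not pass the threshold, at -1.41 for 8:2FTS against 4:2FTS (-2.40 to -0.43, adjusted p = 0.114), -1.36 for 6:2FTS against 4:2FTS (-2.30 to -0.41, adjusted p = 0.757) and -0.07 for 8:2FTS against 6:2FTS (-1.19 to 1.06, adjusted p = 0.973). Its controls ranged from 9.56 to 25.8 CPM in the 8:2FTS exposure and from 14.7 to 18.03 CPM in the other.

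The falling member at rank 35 also started from unequal controls, at 224, 184 and 210 CPM in the 8:2FTS exposure and 105, 109 and 126 CPM in the other. It went from 222, 204 and 180 CPM at 0.1 µM to 169, 127 and 133 CPM at 32 µM with 8:2FTS, and from 76.5, 106 and 105 CPM to 100, 115 and 148 CPM with 4:2FTS. With 6:2FTS the values were 126, 111 and 134 CPM and then 158, 156 and 150 CPM. The 3 series thus lay closer together at 32 µM than at 0.1 µM. The change from 0.1 to 32 µM with 8:2FTS was -0.49 (edgeR, adjusted p = 0.0398, lost when any replicate number was left out, 0.00489 to 0.707). The difference of trends was -0.75 against 4:2FTS (edgeR, adjusted p = 0.0158, lost without replicates 2 or 3, 0.0037 to 0.196) and -0.74 against 6:2FTS (adjusted p = 0.0134, lost without replicates 1 or 2, 0.00208 to 0.481). The other falling member called against 4:2FTS was that at rank 16, at -0.67 (adjusted p = 0.0372), a call lost when any replicate number was left out (0.012 to 0.257).

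The second member of each list had no trend below 100 µM that passed the threshold. Rsub_12981 held 11.7, 10.4 and 18.9 CPM in the controls of 8:2FTS and 29.5, 25.7 and 36.1 CPM at 100 µM. At 32 µM it was at 18.5, 16.0 and 7.14 CPM, overlapping with the controls. Its trend with 8:2FTS was 0.18 (95% interval -0.53 to 0.90; edgeR, adjusted p = 0.917). Rsub_02617 held 20.2, 31.3 and 44.7 CPM in those controls, 25.3, 31.1 and 24.1 CPM at 32 µM and 22.1, 10.6 and 12.03 CPM at 100 µM, and its 32 µM libraries lie within the control range. Its trend was -0.04 (-0.51 to 0.44, adjusted p = 0.983). The 2 falling members called down with 4:2FTS were those at ranks 6 and 17, at -0.83 (adjusted p = 0.0216, lost without replicates 1 or 3, 0.0128 to 0.361) and -0.71 (adjusted p = 0.0307, lost without replicates 2 or 3, 0.0118 to 0.414).

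PFTDoDA, the other compound of the 8:2FTS exposure, was compared between 100 and 0.1 µM, which leaves out the shared controls. It changed many genes. Of the 50 rising members, 7 were called up (edgeR, adjusted p under 0.05), where 13.0% of all genes were, and 2 down (11.6%). Of the 50 falling members, 9 were called down (11.6%) and 1 up (13.0%). The share of rising members called up lies near the background, and that of falling members called down lies above it. The shares called against the lists lie below it. None of these differences from the background was tested. The rising member at rank 10 went from 67.4, 84.2 and 72.8 CPM to 769, 826 and 848 CPM, a change of 3.49 (adjusted p = 1.66e-30), and its libraries were already at 196, 201 and 252 CPM at 1 µM. With 8:2FTS at 100 µM the same member stood at 89.3, 98.4 and 193 CPM, above its controls at 60.6, 61.6 and 75.5 CPM. It was selected on these 8:2FTS and control libraries, so nothing is read from their order.

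The members at ranks 34 and 43 rose by 2.94 and 2.81 with PFTDoDA and that at rank 41 by 1.82 (edgeR, adjusted p = 5.99e-13, 2.36e-13 and 1.7e-14). Rsub_07655 did not follow them, at 34.1, 32.0 and 39.4 CPM with 0.1 µM and 54.5, 21.5 and 25.6 CPM with 100 µM PFTDoDA (log2 change -0.05, 95% interval -0.66 to 0.55, adjusted p = 0.929). Rsub_11204 went from 28.7, 23.2 and 23.9 CPM to 3.89, 2.08 and 4.00 CPM (-2.88, adjusted p = 2.14e-07). The libraries of that gene at 100 µM lie under every library at 0.1 µM. The rising members called down were those at rank 46 (-0.74, adjusted p = 1.82e-05) and rank 21 (-0.60, adjusted p = 0.0449, lost under 5 of 8 alternatives), and the falling member at rank 44 was called up (1.83, adjusted p = 7.57e-05).

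PFOS and PFHxS are perfluoroalkane sulfonates with the same kind of head group, of which PFOS has the longer chain, and they were tested in different exposures. Rsub_07655 went from 34.7, 53.6 and 53.0 CPM in the controls to 122, 154 and 182 CPM at 100 µM PFOS. With PFHxS it stayed at 20.6, 24.8 and 27.6 CPM, beside controls at 24.5, 22.7 and 21.9 CPM. The PFOS libraries lie above their controls, and those of PFHxS overlap with theirs. The changes differed by 1.68 ± 0.35 on the log2 scale (SE; edgeR, adjusted p = 0.00247), a call lost without replicate 2 (0.000495 to 0.191 over the alternatives).

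2 rising members were called higher with PFOS (1.12% of all genes), Rsub_07655 and that at rank 10 (0.95, adjusted p = 0.0468, lost under 5 of 8 alternatives). 2 were called lower (1.34%), those at rank 33 (-2.10, adjusted p = 0.0381, lost without replicates 1 or 2, 0.0126 to 0.349) and rank 46 (-1.58, adjusted p = 0.0183, lost without replicate 2, 1.44e-07 to 0.501). 0 falling members were called in either direction by edgeR, with 2 lower at an unadjusted p under 0.05. Of all 9666 genes, 1528 passed that limit in either direction. The median difference was -0.18 in the rising list and 0.007 in the falling list, beside 0.01 over all genes.

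The 18 compounds of the 9 other exposures were each compared at their highest concentration with their own DMSO controls, and none of these libraries chose the members. In the rising list 74 of 877 member and compound pairs were called up (8.44%, with 3.71% over all genes). Of the same 877 pairs, 14 were called down (3.67% over all genes). In the falling list 44 of 874 were called down (5.03%, with 3.67% over all genes) and 18 up (3.71%). Both counts against the lists lie below the share over all genes. Compounds of 1 exposure share controls, so these pairs are not independent.

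The calls of the rising list were concentrated in a few members. 6 rising members were called up with at least 5 compounds (0.878% of 10246 genes), and they account for 47 of the 74 pairs. They were Rsub_07655 and the member at rank 16 with 10 compounds each, in 7 and 8 exposures, that at rank 10 with 9, that at rank 20 with 7, that at rank 41 with 6 and that at rank 43 with 5. 4 of the 6 are among the 5 members with a called 8:2FTS trend. This overlap was not computed over all genes, so nothing is read from it. 26 rising members were called up with none of the 18 compounds. 2 falling members were called down with at least 5 compounds (0.664%), Rsub_11204 with 6 and that at rank 9 with 5, and 28 were called down with none. The 4 falling members called most often held 19 of the 44 pairs. 25 rising and 26 falling members were called in the direction of their list neither with these 18 compounds, nor with PFTDoDA, nor in the fluorotelomer sulfonate comparisons without the selecting libraries. The shares of all genes without such calls were not computed, so nothing is read from these counts of uncalled members. How far calls were concentrated over all genes was not computed either.

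Rsub_07655 rose with 10 of the 18 compounds. FC10diol gave the highest level, from 28.2, 37.1 and 44.8 CPM in the controls through 108, 98.2 and 129 CPM at 3 µM to 820, 551 and 551 CPM at 100 µM (log2 change 4.54; edgeR, adjusted p = 1.59e-22). With FC8diol, which shared those controls, it reached 300, 354 and 345 CPM (3.28, adjusted p = 3e-18). With 6:1 FTOH the 2 libraries at 100 µM held 278 and 230 CPM beside controls at 16.2, 22.5 and 29.3 CPM (3.48, adjusted p = 8.04e-12). Each of these libraries lies above every control of its exposure. N-EtFOSA-M, FHxSA, PFOS, FC8DoD, PFUdA, PFOA and PFTP gave called rises between 1.26 and 1.76, of which that with PFOA was lost without replicate 2 (1.28, adjusted p = 8.36e-05, 2.03e-06 to 0.0575 over the alternatives).

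Among the perfluorocarboxylic acids, given here from the shortest chain to the longest, the change of Rsub_07655 was -0.05 with PFPeA, 0.36 with PFHpA, 1.28 with PFOA, 1.198 with PFNA, 1.43 with PFUdA, 0.34 with PFTrDA and 0.17 with PFTeDA. PFTrDA reached only 5 µM, and differences between these acids were not tested. Of the 7, PFOA and PFUdA were called (edgeR), while PFNA had an adjusted p of 0.0536. The called acids lie within the series, and neither its shortest nor its longest member was called. The 95% intervals were -0.69 to 0.58 with PFPeA, -0.35 to 1.02 with PFTrDA and -0.46 to 0.80 with PFTeDA. These intervals leave room for rises, so no order by chain length is read from the calls.

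Rsub_11204 was lowered by 6 of the 18 compounds. With N-EtFOSA-M it went from 60.0, 55.7 and 71.8 CPM in the controls to 11.4, 13.6 and 20.1 CPM at 100 µM (log2 change -2.09; edgeR, adjusted p = 2.88e-07). With FHxSA, which shared those controls, it stood at 19.2, 7.03 and 11.4 CPM at 32 µM and 23.0, 30.3 and 25.8 CPM at 100 µM (-1.26 at 100 µM, adjusted p = 9.88e-06). The lowest FHxSA values thus lay at 32 µM. PFTP (-2.12, adjusted p = 0.00678, 2.01e-10 to 0.0756 over the alternatives) and PFUdA (-1.35, adjusted p = 0.0298, 0.000594 to 0.208) were called and lost without replicates 2 or 3, and PFOS (-1.09, adjusted p = 0.0401, 0.0136 to 0.281) was lost when any replicate number was left out. With FC8diol it held 1.53, 0 and 0 CPM beside controls at 5.5, 8.56 and 7.75 CPM, a call also lost without replicates 2 or 3 (adjusted p = 0.0254, 0.00884 to 0.213).

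FC10diol went the other way for Rsub_11204 at 100 µM, at 12, 19.9 and 8.95 CPM, after 0.77, 0 and 0.85 CPM at 32 µM. This rise of 1.28 (edgeR, adjusted p = 0.0434, 0.0364 to 0.179 over the alternatives) was lost without the filter on low counts, with library totals and when any replicate number was left out. The controls of this gene spanned 5.5 to 339 CPM over the 11 exposures. 1 PFOA library at 10 µM stood apart at 405 CPM, beside 10.4 and 16.0 CPM in the other two.

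**Figure D4:**
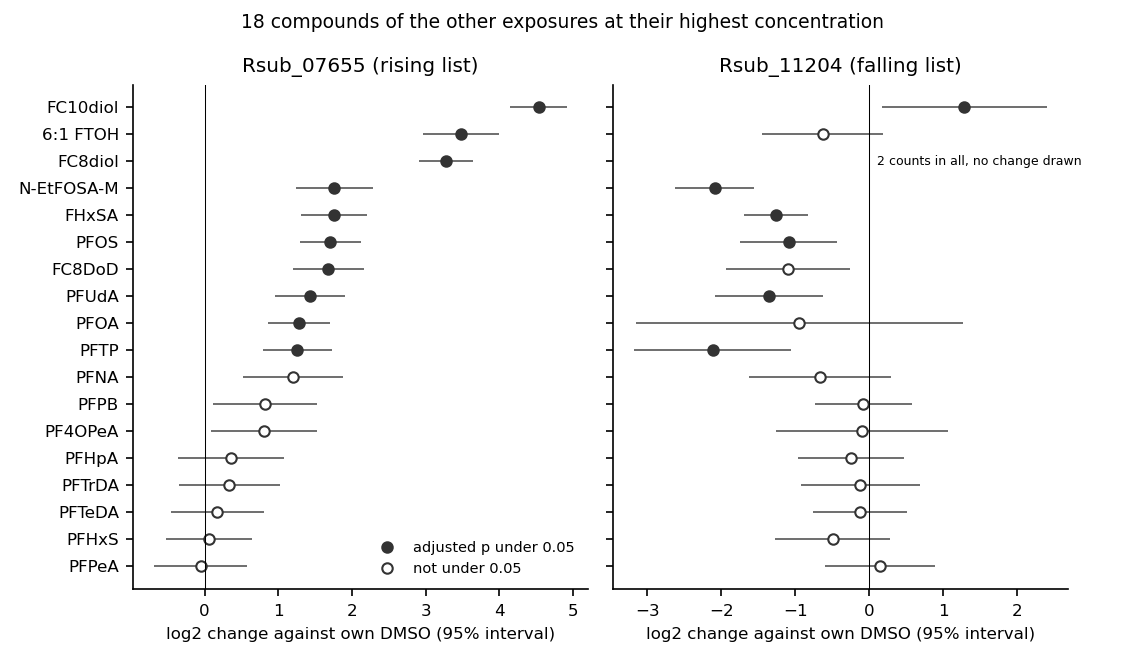
Log2 change at the highest concentration against the own DMSO controls (horizontal axis, points with 95% intervals from edgeR) of Rsub_07655 and Rsub_11204 for 18 compounds of 9 exposures; filled points had an adjusted p under 0.05, and the FC8diol value of Rsub_11204 is not drawn because its libraries held only 2 counts in all. Rsub_07655 lies at 4.54 with FC10diol and near 0 with PFPeA and PFHxS, and Rsub_11204 is lowest with PFTP at -2.12 and N-EtFOSA-M at -2.09.

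Counts by compound are given beside the share of all genes called in the same direction. FC10diol raised 17 of 49 tested rising members (28.6% of all genes) and lowered 13 falling members (29.9%). With library totals in place of scaling factors, its median gene shifted from -0.06 to -0.45, and the counts became 14 and 21. Of all 9122 genes, 1842 were then called up and 3822 down. PFTP raised 7 rising and lowered 7 falling members (10.7% and 7.73%), with its median gene shifting from -0.02 to -0.14, and FHxSA 6 and 9 (7.1% and 8.3%). These 3 compounds called many genes of any kind. Without replicate 2 FC10diol lowered 8 falling members, where 2193 of all genes were called down, beside 2731 with all replicates. PFTP lowered 4 falling members whichever replicate number was left out. Over all genes those PFTP fits called 421, 247 and 509 down, beside 726 with all replicates. FHxSA raised 3 rising members without replicate 1 or 2. Its calls up over all genes fell in both fits, to 333 without replicate 2 from 673 with all replicates.

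N-EtFOSA-M raised 8 rising members (3.21%) and lowered 4 falling members (4.08%), PFOS raised 6 and lowered 2 (2.6% and 1.99%), and FC8diol raised 5 and lowered 7 (5.27% and 4.81%). PFHxS raised 5 rising members (2.67%), PFOA 4 (1.52%), 6:1 FTOH 4 (1.12%) and PFUdA 4 (1.05%). The falling members called down with these compounds numbered 0 with PFHxS (1.74%), 0 with PFOA (0.944%), 0 with 6:1 FTOH (1.35%) and 1 with PFUdA (1.53%). The difference between the lists was not tested.

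Several of these counts changed when 1 replicate number was left out, as did the calls over all genes in the same direction, given in brackets. PFHxS raised 0 rising members without replicate 2 (53 genes, 252 with all replicates) and 1 without replicate 3 (192). PFOA raised 1 without replicate 1 (53 genes, 142 with all replicates), 0 without replicate 2 (9) and 7 without replicate 3 (504). 6:1 FTOH raised 2 without replicate 1 or 2 (37 and 24 genes, 108 with all replicates). PFUdA raised 2 without replicate 3 (49 genes, 93 with all replicates). Without replicate 2 N-EtFOSA-M raised 2 rising members (37 genes, 304 with all replicates) and lowered 1 falling member (62 genes, 387 with all replicates). It lowered 7 without replicate 3 (323). PFOS raised 3 rising members without replicate 1 (100 genes, 242 with all replicates). PFOS lowered 0 falling members without replicate 1 or 2 (43 and 14 genes, 185 with all replicates) and 1 without replicate 3 (404). PFUdA lowered 0 without replicate 2 or 3 (54 and 56 genes, 135 with all replicates). FC8diol lowered 3 without replicate 2 (135 genes, 433 with all replicates) and 2 without replicate 3 (145).

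The remaining compounds called few genes. PFTeDA raised 2 of 42 rising members (0.489%) and lowered 0 falling members (0.418%), PFNA 2 of 41 and 0 (0.619% and 0.619%), FC8DoD 2 and 0 (0.454% and 0.303%), PFTrDA 1 and 0 (0.121% and 0.0486%) and PFPB 1 and 1 (0.291% and 1.03%). PFPeA raised 0 and lowered 0 (0.328% and 0.498%), as did PFHpA (0.0625% and 0.0937%) and PF4OPeA (0.105% and 0.063%).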

How the data were processed

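The authors deposited 22 tables of whole-number counts per gene, 1 per compound; counts are not normalised. featureCounts 2.0.6, SAMtools 1.15.1, STAR 2.7.10a and fastp 0.23.2 are listed in the submitters' processing notes. Build, annotation and any collapsing of reads by molecular identifier: not given in the sources used here. Uncollapsed duplicates would lower the counting precision, and overlapping or near-identical genes can share reads. Groups, concentrations and the numbers P1 to P3 came from the labels. PFHpA and 6:1 FTOH had 2 libraries at 100 µM. Separate cultures are not stated for the replicates, and p-values then measure only library-to-library spread, possibly technical. All 491 replicate pairs differed by more than counting noise (chi-square divided by its degrees of freedom between 1.73 and 17.63), and none was treated as a duplicate.

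CPM were counts scaled to the library total. Tests used edgeR 4.0.16 in R 4.3.3 on the deposited counts (filterByExpr by group, TMM, estimateDisp, robust glmQLFit, glmQLFTest), two-sided, with Benjamini-Hochberg adjustment over all genes of 1 fit and a threshold of 0.05. A trend used libraries from 0.1 to 32 µM of 1 compound, a difference of trends those of 2 compounds, and the 18 other compounds 1 fit each with all concentrations and controls. Alternatives were RLE size factors, no filter, DESeq2 1.42.0, the replicate number as a block, each replicate number left out and, added after seeing the data, library totals; adjusted p-values that DESeq2 left empty were not counted. The script was tested on simulated data. Tables and figures used Python 3.11.15 with pandas 2.3.3, numpy 2.4.6 and matplotlib 3.10.9.

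The members and lists were chosen with earlier results of these data known. Named genes are the 2 highest and 2 lowest R(8:2FTS) minus R(4:2FTS); other ranks were picked out because they were called in a test. Lists of gene functions could not be matched to the identifiers and were not used.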

Additional observations from a re-analysis of the deposited data

Results flagged for a closer look

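Members whose effect differed between compounds by a test of the difference itself were looked at again. Between the trends of 8:2FTS and 4:2FTS, 1 rising member differed upwards (edgeR, adjusted p under 0.05), where 1.7% of all genes did. 2 falling members differed downwards (0.532%). For Rsub_07655 the difference was 1.55 on the log2 scale. Between 8:2FTS and 6:2FTS 2 rising members differed upwards (0.416%) and 1 falling member downwards (0.479%), with Rsub_07655 at 1.23. Between the changes with PFOS and PFHxS 2 rising members differed upwards (1.12%), Rsub_07655 at 1.68 and that at rank 10. Another 2 rising members differed downwards there, against their list (1.34%). In all 3 cases the compounds came from different exposures, which cannot be told apart from the compounds. The share of the exposure in these differences was not tested.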

How the results depend on the processing

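Counts are of members called in the direction of their list. Raising the control limit to 20 CPM kept 51 of the 100 members, and leaving out a replicate number kept 29 to 33; pseudocounts of 0.5 and 5 and TMM scaling kept 97, 71 and 97. Leaving out a replicate number gave 1 to 5 members for the 8:2FTS trend (6 with all), 0 to 1 for 6:2FTS (1), 0 to 1 for 4:2FTS (2), 1 to 3 for 8:2FTS against 4:2FTS (3), 0 to 2 for 8:2FTS against 6:2FTS (3), 1 to 4 for 8:2FTS at 32 against 0.1 µM (5), 9 to 14 for PFTDoDA (16), 0 to 1 for PFOS against PFHxS (2) and 69 to 97 pairs for the 18 compounds (118). Those fits hold fewer libraries. Without replicate 2 the calls over all genes fell in each of them, and without replicates 1 or 3 they fell in some and rose in others. With DESeq2, 8:2FTS against 4:2FTS gave 6 members. Over all genes DESeq2 called 247 up and 89 down there, beside 160 and 50 with edgeR. PFOS against PFHxS gave 1 without the filter and 1 with library totals, where 82 and 80 of all genes were called up, beside 108. The cause was not tested. For 6:2FTS against 4:2FTS the count was 0 under all 8 alternatives, by trend and at 32 µM. The trend of Rsub_12981 turned from 0.18 to -0.085 without replicate 2 and that of Rsub_02617 from -0.04 to 0.028 without replicate 3, neither past the threshold in either form; over the replicate numbers left out they ranged from -0.085 to 0.332 and from -0.066 to 0.028.

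Same-numbered libraries deviated together with median correlations of 0.05, 0.13 and 0.07 for 4:2FTS, 6:2FTS and 8:2FTS, not all above 0.1, and 16, 17 and 16 of 18 libraries lay closest to their own number. Since not all correlations passed 0.1, the main fits did not use the numbers as a block, although most libraries lay closest to their own number. With the replicate block the counts were 11 for the 8:2FTS trend, 6 rising and 5 falling members beside 5 and 1 without it. They were 2 for 6:2FTS and 7 for 8:2FTS against 4:2FTS. Calls over all genes rose as well. For 6:2FTS they were 98 up and 216 down, beside 39 and 117 without the block. For 8:2FTS against 4:2FTS they were 273 and 108, beside 160 and 50. Members had median counts near 20 to 40 per library, which limits what differences could be detected. Intervals cover the spread between these libraries only.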
